A study of Mus musculus with 8 samples.

Results

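The 38 genes described here are hypoxia response and glycolysis genes of the mouse. They were taken as a list of names and looked up in the deposited gene table, where all 38 were found among 32285 genes. Each had at least 30 UMIs (unique molecular identifiers, each standing for 1 captured RNA molecule) in the kept nuclei, as did 16500 genes in all. The lookup itself used no measured value, but the names were listed with earlier results of these data known.

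When oxygen is scarce, prolyl hydroxylases of the EGLN family stop marking HIF proteins for destruction, and the HIF transcription factors then raise a set of genes for glucose uptake, glycolysis, lactate export, mitophagy and matrix modification. Many of these genes also serve cells that run glycolysis with oxygen present, and the enzymes of the central pathway are active in every cell. In the alveolus, type II cells make surfactant and renew the epithelium, flat type I cells carry gas exchange, and a keratin-rich transitional state lies between them.

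The nuclei came from alveolarspheres, which are spheres grown in serum-free, feeder-free culture from type II cells of young and old mice. The cultures received an AAV9 virus on day 9 that carried either Cre recombinase alone (labelled genotype Cre, treatment control) or Sox9 together with Cre (labelled genotype Sox9Cre, treatment Sox9 overexpression), and then spent 4 days in a medium that promotes type I differentiation. Live tdTomato-positive cells were sorted, so that all groups share the reporter and exposure to Cre, and RNA and open chromatin were read from the same nuclei. The labels list 8 samples in 4 groups of 2, one RNA and one ATAC group for each virus, and they do not say which mice, or which age of mouse, went into a sample.

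RNA and ATAC counts of all samples were deposited as pooled matrices in which 4 barcode prefixes, called libraries A to D here, cannot be tied to a labelled sample. The viruses and ages are therefore not compared, no test is given, and each library's value is stated by itself. The kept nuclei numbered 7184 (1260, 760, 3236 and 1928 in libraries A to D), with median depths between 9802 and 11728 UMIs. Libraries A and B stood apart from C and D in makeup: they held no airway-marked nuclei and 1 Sox9-high nucleus between them. In all, 20 barcodes occurred in more than 1 library.

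Nuclei were sorted by marker genes into type II-marked (2379), type I-marked (1520), transitional (1800), airway-marked (130) and Sox9-high groups (312, each with at least 5 Sox9 UMIs), and 1043 nuclei met no rule. The first 4 groups are ranges of a marker score, not sharp types: 1443 nuclei lay within 0.25 of the type I line and 1378 within 0.25 of the transitional line. Markers of basal cells summed to 0.0326 UMIs per 10000 over all kept nuclei (0 of 6 genes at 0), of mesenchymal cells to 0.0467 (1 of 10 at 0), of endothelial cells to 0.110 (1 of 8 at 0) and of immune cells to 0.100 (0 of 9 at 0). The surfactant gene Sftpc was at 912 UMIs per 10000 in type II-marked nuclei and 28.0 in airway-marked nuclei. The airway gene Scgb3a2 was at 93.4 in airway-marked nuclei and at 0.0472 to 0.0732 in the other groups. Whether Sftpc RNA in airway-marked nuclei was free RNA, came from doublets or was their own was not tested.

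HIF binds DNA at the core letters ACGTG or GCGTG, so 5 promoters are printed to show how that core varies between 4 members past the 2-fold line in at least 1 group and Ldha, which passed it in none. They are the 250 bases before a RefSeq transcript start in GRCm38.p6, 5′ to 3′ along the gene, with every match of either core in capitals. On the other strand the first core reads CACGT, and the second one, searched in the same way, reads CACGC. Overlapping ACGTG matches on the 2 strands, which spell CACGTG, count as 1 site.
Slc16a3 (chr11:120948817-120949066, plus strand): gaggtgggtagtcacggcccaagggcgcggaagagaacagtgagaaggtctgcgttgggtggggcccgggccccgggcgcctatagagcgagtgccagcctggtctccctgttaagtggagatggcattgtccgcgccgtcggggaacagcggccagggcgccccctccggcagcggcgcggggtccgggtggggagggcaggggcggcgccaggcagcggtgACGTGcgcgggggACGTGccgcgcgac
Pgk1 (chrX:106186850-106187099, plus strand): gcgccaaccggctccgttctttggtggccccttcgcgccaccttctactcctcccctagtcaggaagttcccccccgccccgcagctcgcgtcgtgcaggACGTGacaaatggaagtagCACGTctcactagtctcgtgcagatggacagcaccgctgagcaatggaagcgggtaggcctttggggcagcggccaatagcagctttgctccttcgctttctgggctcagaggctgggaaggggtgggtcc
Ldha (chr7:46845554-46845803, plus strand): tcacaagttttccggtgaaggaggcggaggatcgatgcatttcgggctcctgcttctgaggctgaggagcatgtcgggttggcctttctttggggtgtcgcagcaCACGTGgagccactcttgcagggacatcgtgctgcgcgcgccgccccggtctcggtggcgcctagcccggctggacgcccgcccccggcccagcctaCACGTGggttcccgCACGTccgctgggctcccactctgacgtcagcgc
Egln3 (chr12:54203875-54204124, minus strand): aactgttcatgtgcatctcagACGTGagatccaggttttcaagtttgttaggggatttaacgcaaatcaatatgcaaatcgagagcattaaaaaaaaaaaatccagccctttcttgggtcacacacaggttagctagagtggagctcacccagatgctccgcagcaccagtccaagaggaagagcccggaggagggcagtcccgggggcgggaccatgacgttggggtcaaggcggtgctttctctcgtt
Pfkfb4 (chr9:108991652-108991901, plus strand): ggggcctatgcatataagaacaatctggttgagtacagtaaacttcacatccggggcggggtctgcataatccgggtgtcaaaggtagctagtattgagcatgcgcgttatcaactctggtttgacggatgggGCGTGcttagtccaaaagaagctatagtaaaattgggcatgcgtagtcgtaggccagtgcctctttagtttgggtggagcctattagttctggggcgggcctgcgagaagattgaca

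The core letters were spread unevenly over these promoters. Slc16a3, the lactate exporter MCT4, has matches starting at bases −27 and −14 before its transcript start. Pgk1, phosphoglycerate kinase, has them at −150 and −131, and Ldha, lactate dehydrogenase A, at −145, −48 and −34. Egln3, a HIF prolyl hydroxylase, has 1 match at −229. The printed promoter of Pfkfb4, an enzyme that sets the level of fructose 2,6-bisphosphate, has no ACGTG but 1 GCGTG, at −117, and GCGTG is in none of the other 4 windows.

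RefSeq promoters of 300 bases, from 250 before to 50 after a start, were found for 33 of the 38 genes. Ndrg1, Bnip3l, Plod2, Lox and Loxl2 had no entry. ACGTG or CACGT was found in 24 of 45 promoters of the genes (53.3%), against 19.6% of all 32851 promoters. Counted by gene, 22 of 33 members (66.7%) had a match in at least 1 promoter, against 21.8% of all genes. With GCGTG or CACGC counted too, the gap was smaller: 34 of 45 promoters (75.6%) against 43.8% of all, and 29 of 33 members (87.9%) against 46.7% of all genes. For ACGTG, promoters lying in an accessible peak of these nuclei gave 22 of 37 (59.5%) for the members and 25.2% for all 16006 such promoters, and for either core 83.8% and 61.3%. A match describes the letters and shows no binding.

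Across the 5 groups of nuclei the 38 genes together made up the largest share of RNA in transitional nuclei and the smallest in type II-marked nuclei. Their summed level was 30.6 UMIs per 10000 in type II-marked, 36.2 in type I-marked, 44.4 in airway-marked, 46.7 in Sox9-high and 56.0 in transitional nuclei. Of the 38, 18 had their highest level in transitional nuclei and 19 their lowest in type II-marked nuclei. In every library the order of the 3 large groups was the same for the 18 genes of glucose and lactate transport, glycolytic enzymes and glycolytic control. In libraries A to D those 18 genes summed to 20.9, 23.2, 20.4 and 21.6 in type II-marked nuclei, 22.6, 26.0, 29.0 and 25.0 in type I-marked nuclei, and 41.0, 44.9, 46.6 and 45.0 in transitional nuclei. The lowest transitional value lay above the highest of the other 2 groups. The 20 remaining genes hardly moved as a sum: 9.25 to 9.62 in type II-marked nuclei, 9.24 to 10.5 in type I-marked nuclei and 9.96 to 11.9 in transitional nuclei over the libraries. That sum is weighted to its abundant genes, such as Bnip3l with 20028 UMIs in all nuclei, beside 1214 for Ndrg1 and 216 for Egln3.

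The level of ribosomal protein RNA moved with these sums and is given beside them. Ribosomal protein genes made up 618 UMIs per 10000 in type II-marked, 593 in type I-marked and 887 in transitional nuclei. Per 100 ribosomal protein UMIs the 18 glycolytic genes had 3.36 to 3.54 UMIs in type II-marked, 3.88 to 5.04 in type I-marked and 4.57 to 5.37 in transitional nuclei over the libraries. On that scale type II-marked nuclei stayed lowest and transitional nuclei highest of the 3 groups in every library, with type I-marked and transitional nuclei closest in library C at 5.04 and 5.37. The part of ribosomal RNA content in the differences was not tested.

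**Figure D1:**
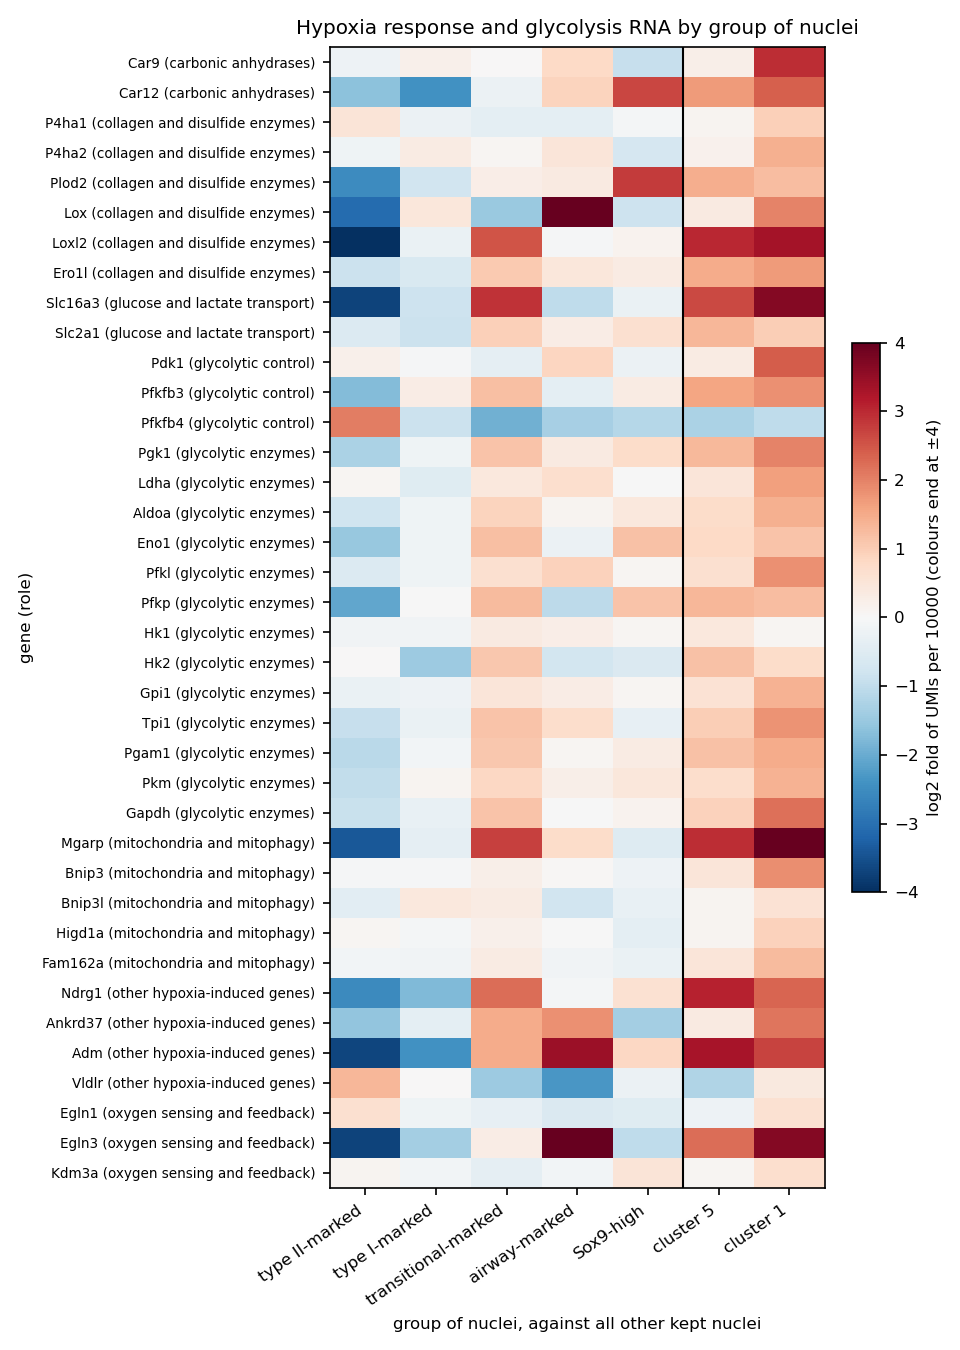
Log2 fold of each of the 38 genes (rows, by role) in each of the 5 groups and in clusters 1 and 5 (columns) against all other kept nuclei, as UMIs per 10000, with colours ending at ±4. Transitional nuclei are mostly on the high side (15 genes at least 2-fold higher) and type II-marked nuclei mostly on the low side (15 genes at least 2-fold lower).

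In type II-marked nuclei 2 of the 38 genes were at least 2-fold higher than in all other nuclei, where 3.96% of all 16500 genes were, and 15 were at least 2-fold lower, where 14.0% of all genes were. The median log2 fold of the 38 was −0.83, beside −0.18 for all genes. In type I-marked nuclei none of the 38 was higher by that line (2.91% of all genes) and 5 were lower (10.7%), with a median of −0.18 beside −0.02. In transitional nuclei 15 were higher (5.95%) and 3 lower (7.73%), with a median of 0.57 beside −0.01. In airway-marked nuclei 4 were higher (10.5%) and 4 lower (8.64%), with a median of 0.17 beside −0.01. In Sox9-high nuclei 4 were higher (7.01%) and 3 lower (4.52%), with a median of 0.03 beside 0.03. The shares among the 38 were furthest above the background in type II-marked nuclei on the low side and in transitional nuclei on the high side, and the counts in airway-marked nuclei lay near it. On the ribosomal scale 4 genes passed the 2-fold line upward in transitional nuclei, Slc16a3, Mgarp, Loxl2 and Ndrg1, and the median was 0.0694. That scale multiplies the folds of all genes in a group by the same factor. The median of all genes shifts by as much as that of the 38, and the gap between these medians stays as given above. The shares and medians of all genes above therefore do not apply to it, and those on that scale are not given here. In all, 21 of the 38 passed the 2-fold line in at least 1 group, where 38.0% of all genes did, and 17 in none. Without clusters 1 and 5, which are 62 and 621 nuclei with much member RNA, 9 genes were higher in transitional nuclei. Hk2, Pgam1, Pfkfb3, Ero1l and Adm then fell below the line, at 1.86, 1.95, 1.96, 1.82 and 1.29, and Mgarp, at 4.65, was left with 29 UMIs in all nuclei, under the minimum of 30, and not counted. The share of all genes past the line without these clusters is not given here.

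The glucose and lactate transporters split by group. Slc16a3 had 0.0998, 0.161, 0.255 and 0.171 UMIs per 10000 in the transitional nuclei of libraries A to D. In type II-marked nuclei it had 0.00853, 0.00587, 0.00722 and 0.0104. The 2 groups did not overlap in any library. Transitional nuclei were 7.47-fold higher than all other nuclei (95% interval 6.24 to 8.99, which like all intervals here covers counting error only). Type II-marked nuclei had 0.077 times the level of the rest, from 26 UMIs, and 0.117 times without clusters 1 and 5. Slc2a1, the glucose importer GLUT1, ranged from 0.184 in type I-marked to 0.471 in transitional nuclei and stayed within 2-fold, at 1.95 in the latter.

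Among the 13 glycolytic enzymes, 7 were at least 2-fold higher in transitional nuclei and 4 at least 2-fold lower in type II-marked nuclei. Gapdh, which oxidises glyceraldehyde 3-phosphate, had 8.37, 8.74, 9.84 and 9.14 UMIs per 10000 in transitional nuclei of libraries A to D, and 3.58, 4.04, 3.34 and 3.78 in type II-marked nuclei. Its transitional level was 2.22-fold that of the other nuclei, and type I-marked nuclei lay between, at 3.80 to 5.31. Eno1, which makes phosphoenolpyruvate, had 2.86, 3.20, 3.35 and 3.27 in transitional and 0.941, 0.995, 0.827 and 0.880 in type II-marked nuclei. Those are folds of 2.29 and 0.353 against the rest, and the libraries did not overlap between the groups. Pgk1 had 2.05, 2.22, 2.62 and 2.55 in transitional nuclei against 0.817, 0.792, 0.776 and 0.757 in type II-marked nuclei, with folds of 2.23 and 0.419.

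Tpi1, triose phosphate isomerase, was 2.22-fold higher in transitional nuclei (2.75 to 3.30 over the libraries). Pgam1, phosphoglycerate mutase, was 2.10-fold higher there (1.94 to 2.41) and at 0.472 of the rest in type II-marked nuclei (0.772 to 0.842), or 0.524 without clusters 1 and 5. Pfkp, the platelet form of phosphofructokinase, was 2.42-fold higher in transitional nuclei (0.516 to 0.692) and at 0.239 of the rest in type II-marked nuclei (0.0851 to 0.130). Of the 13 enzymes the hexokinase Hk2 parted type I-marked from transitional nuclei most: 0.344, 0.346, 0.387 and 0.245 against 1.63, 1.43, 1.35 and 1.08 in libraries A to D, folds of 0.362 and 2.10. Its type II-marked level was near the average, at 1.01 of the rest. Hk1, the broadly expressed hexokinase, stayed between 0.326 and 0.428 in all 5 groups.

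Other enzymes were closer to even. Aldoa, aldolase A, ran from 3.75 in type II-marked to 8.28 in transitional nuclei, and Pkm, pyruvate kinase, from 2.68 to 6.38, and neither passed the 2-fold line. Gpi1 and Pfkl, the glucose phosphate isomerase and the liver form of phosphofructokinase, stayed between 1.251 and 1.79 and between 0.421 and 1.0005. Ldha did not follow the pattern: type II-marked nuclei had 3.20, 3.68, 3.25 and 3.66 UMIs per 10000 in libraries A to D, above the type I-marked nuclei of the same libraries at 2.18, 2.29, 2.87 and 2.28. Transitional nuclei had 3.60 to 4.28. Ldha thus stayed near even in type II-marked nuclei, where Slc16a3, the exporter of its product, had few UMIs.

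The 3 control genes went opposite ways, and 2 of them encode the same kind of enzyme. Pfkfb3 and Pfkfb4 both set fructose 2,6-bisphosphate, the activator of phosphofructokinase, and Pdk1 shuts pyruvate out of the mitochondrial cycle. Pfkfb4 had 0.672, 0.731, 0.664 and 0.633 in type II-marked nuclei, and 0.140, 0.123, 0.105 and 0.105 in transitional nuclei. It was 4.09-fold above the rest in type II-marked (3.79 to 4.43) and at 0.264 of the rest in transitional nuclei. Pfkfb3 had 0.0427, 0.0411, 0.0585 and 0.0589 in type II-marked and 0.259, 0.230, 0.225 and 0.224 in transitional nuclei, folds of 0.299 and 2.31. The 2 isoforms thus had mirrored levels in all 4 libraries. Pdk1 ran from 0.125 in transitional to 0.269 in airway-marked nuclei, within 2-fold.

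**Figure D2:**
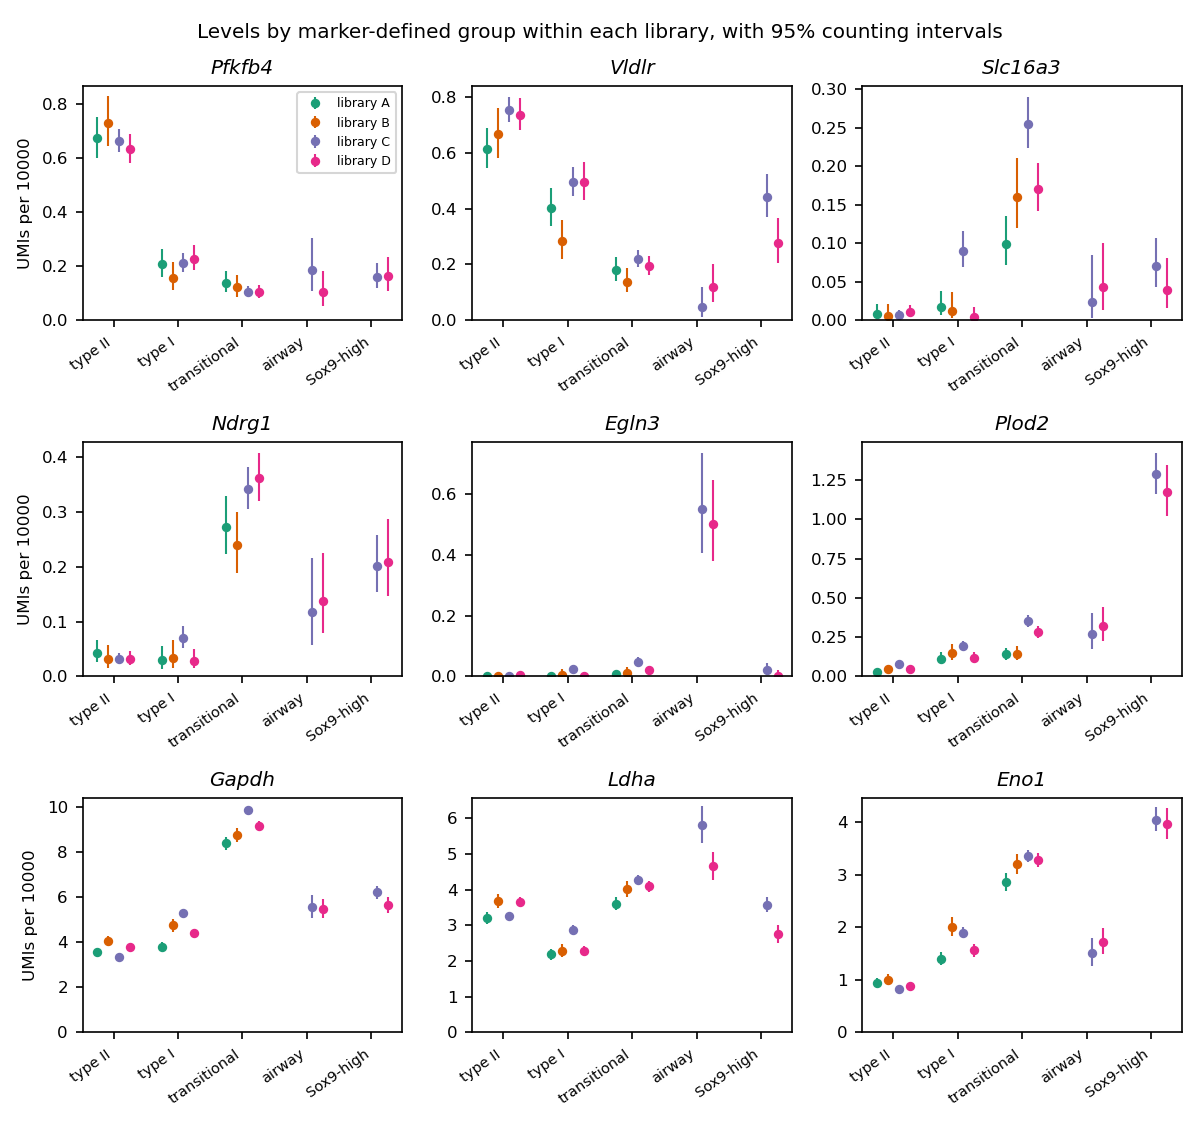
UMIs per 10000 (vertical axes) of 9 genes in each marker-defined group (horizontal axes) and library (colours), with 95% counting intervals, for libraries with at least 30 nuclei of a group. Pfkfb4 and Vldlr are highest in type II-marked nuclei, Slc16a3, Ndrg1 and Gapdh in transitional nuclei, Egln3 and Ldha in airway-marked nuclei and Plod2 and Eno1 in Sox9-high nuclei. At these peaks the libraries differ most, by ratio, for Slc16a3 (0.0998 to 0.255) and then Ndrg1 (0.239 to 0.361). Ldha has 5.82 and 4.66 in libraries C and D.

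Oxygen sensing and feedback genes did not share a pattern. Egln3 was the gene of this role with a large difference: airway-marked nuclei had 0.552 and 0.501 UMIs per 10000 in libraries C and D, 40.5-fold above all other nuclei (30.7 to 53.4), where its level was 0.0129. The fold was 27.2 within library C and 52.0 within library D, and over all libraries it was 73.8 without library C and 134 without clusters 1 and 5. In transitional nuclei Egln3 was at 1.24, and at 0.289 without clusters 1 and 5. The rest in these folds includes the airway-marked nuclei, with 47 and 58 of the 216 Egln3 UMIs in libraries C and D. By level transitional nuclei came next after airway-marked nuclei, at 0.00748, 0.0126, 0.0479 and 0.0219 in libraries A to D. Type II-marked nuclei had 9 Egln3 UMIs, a fold of 0.076, and in type I-marked nuclei 18 UMIs, a fold of 0.386, of which library C held 16. Without library D the type I-marked fold was 0.575, past no line, without library C it was 0.132, and without clusters 1 and 5 it was 0.246. In Sox9-high nuclei 6 UMIs were seen, all in library C, a fold of 0.498 whose interval of 0.181 to 1.1 includes 1, and the call was lost without library C (0.866) or D (0.928). The rest in each of these low folds also includes the airway-marked nuclei, and folds without them were not computed. Within library C Egln3 had 0.00263 UMIs per 10000 in type II-marked, 0.0200 in Sox9-high and 0.0233 in type I-marked nuclei, beside 0.552 in airway-marked nuclei. Egln1, the main HIF prolyl hydroxylase, was highest in type II-marked nuclei at 0.569 and lowest in airway-marked nuclei at 0.294. Kdm3a, a hypoxia-induced histone demethylase, ran from 0.671 in transitional to 1.13 in Sox9-high nuclei.

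Of the mitochondrial genes, Mgarp, a hypoxia-induced protein that anchors mitochondria to their transport machinery, passed the 2-fold line. It had 2, 6, 41 and 6 UMIs in the transitional nuclei of libraries A to D, or 0.00499, 0.0189, 0.0436 and 0.00821 per 10000, a fold of 6.72 (4.03 to 11.6). Library C stood above the others for it, and without library C the fold was 10.9. Type II-marked nuclei had 4 Mgarp UMIs, 0.096 of the rest, or 0.353 without library C and 0.247 without clusters 1 and 5. Bnip3 and Bnip3l, receptors that target mitochondria for removal, stayed between 0.571 and 0.729 and between 1.36 and 2.84. Bnip3l was the 1 member of 38 with its highest level in type I-marked nuclei. Higd1a and Fam162a, a respiratory chain assembly factor and a HIF-responsive mitochondrial protein, stayed between 1.03 and 1.49 and between 0.769 and 1.07.

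Among the other hypoxia-induced genes, Ndrg1, a stress-induced differentiation gene, had 0.272, 0.239, 0.342 and 0.361 UMIs per 10000 in the transitional nuclei of libraries A to D. Type II-marked nuclei had 0.0427, 0.0323, 0.0322 and 0.0312. The fold was 4.66 in transitional (4.14 to 5.25), 0.170 in type II-marked and 0.291 in type I-marked nuclei, and the transitional libraries did not overlap with those of either other group. The type I-marked fold was 0.185 without library C and the type II-marked fold 0.275 without clusters 1 and 5. Ankrd37, a direct HIF target of little-known function, had 0.384 to 0.471 in transitional nuclei (2.79-fold), 0.670 and 0.890 in the airway-marked nuclei of libraries C and D (3.56-fold), and 0.0910 to 0.118 in type II-marked nuclei (0.338). In Sox9-high nuclei it was low, at 0.0668 and 0.141 in libraries C and D (0.392, and 0.580 without library C).

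Adm, the vasodilator peptide adrenomedullin, had 0.117 and 0.155 in airway-marked nuclei of libraries C and D, a fold of 10.6 (6.76 to 16.2), or 25.7 without clusters 1 and 5. In transitional nuclei it had 0.0125, 0.0126, 0.0490 and 0.0233, a pooled fold of 2.81, and within library D transitional nuclei were level with the rest at 1.11. The call was lost without library C (1.44) and without clusters 1 and 5 (1.29), and the fold was 4.82 without library D. Both alveolar groups had 6 UMIs each, folds of 0.078 in type II-marked (0.149 without library C) and 0.189 in type I-marked nuclei (0.298 without clusters 1 and 5). Vldlr, a lipoprotein receptor that HIF can raise, went the other way: 0.612, 0.666, 0.754 and 0.736 in type II-marked nuclei (2.51-fold) against 0.180, 0.139, 0.219 and 0.194 in transitional nuclei (0.362) and 0.0470 and 0.121 in airway-marked nuclei (0.198, and 0.104 without library D). Vldlr and Pfkfb4 were the members above the 2-fold line in type II-marked nuclei.

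The carbonic anhydrases, which buffer acid at the cell surface, were sparse. Car9 had 103 UMIs in all nuclei and passed no line. Car12 had 71, of which 19 fell in Sox9-high nuclei, 14 in library C and 5 in library D, a fold of 6.36 (3.55 to 10.9), or 4.19 without library C. Type II-marked nuclei had 11 Car12 UMIs (0.322), but the call was lost without library C, at 0.724, and the fold was 0.159 without library D. Type I-marked nuclei had 3 (0.187, with an interval of 0.0377 to 0.571), or 0.331 without library C.

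The collagen and disulfide enzymes marked 3 different groups. Plod2, which hydroxylates collagen lysines, had 1.29 and 1.17 UMIs per 10000 in the Sox9-high nuclei of libraries C and D, 6.98-fold above all other nuclei (6.34 to 7.69). Transitional nuclei of those libraries had 0.351 and 0.282, and type II-marked nuclei had 0.0768 and 0.0497. Sox9-high nuclei were thus far above each other group of the same library. Lox, which cross-links collagen and elastin, had 13 and 37 UMIs in airway-marked nuclei of libraries C and D, or 0.153 and 0.320 per 10000, a fold of 48.7 (31.8 to 74.7), which was 79.3 without library C and 30.7 without library D. It had 6 UMIs in type II-marked nuclei (0.120, from 0.0762 without clusters 1 and 5 and 0.0796 without library A to 0.269 without library D). In transitional nuclei it had 11 (0.356, or 0.229 without library C and 0.205 without clusters 1 and 5). The rest in these folds includes the airway-marked nuclei, which held most of the 94 Lox UMIs, and folds without them were not computed. Lox levels fell in the order airway-marked, type I-marked, transitional, Sox9-high and type II-marked, and intervals overlapped from transitional to Sox9-high nuclei. Loxl2, its relative, was instead highest in transitional nuclei, with 0.0200, 0.0283, 0.0575 and 0.0287, a fold of 5.75 (3.96 to 8.47), and type II-marked nuclei had 2 UMIs, or 0.000625 per 10000 against 0.0237 in the rest, a ratio with an interval of 0.00316 to 0.0972 (0.111 without library C and 0.0671 without clusters 1 and 5, with the UMIs set to the floor of 3).

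Ero1l, the endoplasmic reticulum oxidase that HIF can raise, was 2.08-fold higher in transitional nuclei (0.843, 0.793, 1.07 and 1.08 in libraries A to D), and at 1.95, under the line, without library D. P4ha1 and P4ha2, the collagen prolyl hydroxylases, stayed between 0.836 and 1.36 and between 0.456 and 0.986, with P4ha1 highest in type II-marked nuclei. The members in this role therefore ranked the groups in different orders.

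Airway-marked nuclei carried further differences beside those of Egln3, Lox, Adm and Ankrd37. Ldha was highest there, at 5.82 and 4.66 in libraries C and D. Pfkp had 0.117 and 0.216 (0.488 of the rest), Pfkfb4 0.188 and 0.104 (0.399), and Slc16a3 7 UMIs, a fold of 0.489 whose interval of 0.196 to 1.01 includes 1. Each of these 3 calls was lost without 1 library: the Pfkp fold was 0.646 without library C and 0.325 without D, the Pfkfb4 fold was 0.529 without library D, and the Slc16a3 fold was 0.792 without library C. Without clusters 1 and 5 Pfkp was at 0.555 and Slc16a3 at 0.795. All 10 ciliated markers were higher in this group as well, summing to 5.23 UMIs per 10000 against 0.447 in the rest, and basal markers summed to 0.572 against 0.0200. The median depth was 14215 UMIs, and Malat1, a nuclear RNA, stood at 238 against 426 in type II-marked nuclei. The part of these in the airway differences was not tested.

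Sox9-high nuclei were high in Plod2 and Car12 and in 2 glycolytic enzymes. Eno1 had 4.05 and 3.96 in libraries C and D (2.25-fold), above the transitional nuclei of the same libraries at 3.35 and 3.27. Pfkp had 0.772 and 0.631 (2.18-fold), beside 0.692 and 0.597 in transitional nuclei. Other enzymes did not follow: Gapdh had 6.20 and 5.63, Ldha 3.58 and 2.76, and Tpi1 was at 0.796 of the rest. Pfkfb4 was low at 0.160 and 0.163 (0.454). Sox9-high nuclei were the deepest group, with a median of 14368 UMIs, and whether they came from the Sox9 virus cannot be read from the deposited files.

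Further genes of oxygen sensing and energy metabolism were counted in the same way. Over all genes 5.95% were higher and 7.73% lower in transitional nuclei. The shares were 3.96% and 14.0% in type II-marked and 10.5% and 8.64% in airway-marked nuclei. In lists this short a count of 1 or 2 cannot be set apart from these shares, and the genes named are descriptions. Of 8 tested HIF machinery genes, 1 passed the 2-fold line in transitional nuclei: Epas1, which encodes HIF-2α, was at 0.172 of the rest, while Hif1a was at 0.987. Epas1 was at 0.141 in type I-marked nuclei and 20.5-fold higher in airway-marked nuclei, with 7.19 against 0.351 UMIs per 10000, the same nuclei in which Egln3, Lox and Adm were high. Of 21 other HIF targets tested, 2 were higher and 2 lower in transitional nuclei, with Angptl4 at 2.85-fold. In type II-marked nuclei 1 was higher and 2 lower, with Stc2 at 0.109 and Angptl4 at 0.215. In airway-marked nuclei 5 were higher and none lower, led by Stc2 at 48.7-fold.

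Other pathway lists showed few calls, to be read beside the same shares of all genes. Of 13 other glycolysis and lactate genes, 24 pyruvate and TCA cycle genes, 21 oxidative phosphorylation genes and 7 pentose phosphate genes tested, 0, 1, 0 and 0 were at least 2-fold higher in transitional nuclei. The TCA list's gene was Pdk4, which blocks pyruvate entry into the cycle, at 3.58-fold. In type II-marked nuclei the same lists had 0, 0, 1 and 0 higher and 0, 1, 0 and 0 lower, and Pdk4 was at 0.138. Pdk4 thus differed in the same directions as Slc16a3 and Ndrg1, whereas Pdk1 among the members stayed within 2-fold. Of 15 unfolded protein and ATF4 genes 3 were higher in transitional nuclei. Of 13 handling stress genes 2 were higher and 3 lower there: the heat shock genes Hspa1a and Hspa1b had folds of 2.15 and 2.61, which move with the member differences and whose part in them was not tested.

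Between whole libraries, without regard to group, most members were close. The highest library was at most 1.44 times the lowest for 29 of the 38, as for Bnip3 at 1.08 and Gapdh at 1.12. Larger spreads fell on the sparse genes and on those of groups that libraries A and B lack. Egln3 had 0.00296, 0.00514, 0.0317 and 0.0324 UMIs per 10000 in libraries A to D, a span of 11-fold, and Plod2 had 0.110, 0.115, 0.296 and 0.253. Libraries C and D, which hold the airway-marked and Sox9-high nuclei, were high for both. Within transitional nuclei alone, Plod2 still had 0.140 and 0.145 in libraries A and B and 0.351 and 0.282 in C and D. The share of each library that is of 1 treatment is not known, so these spans carry no group comparison.

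Over the 16 combinations of group and library with at least 30 nuclei, the genes outside the 38 and the lists whose log2 levels followed the members' mean most closely were Rexo2, Pdlim7, Tnip3, AI413582, Sprr1a and Glipr1. Their Pearson correlations with it ran from 0.913 to 0.926. These points share libraries and groups, and the correlations are given as a description.

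In single nuclei the glycolytic members had higher pairwise correlations than the rest over all nuclei, though not within airway-marked nuclei. Each nucleus was thinned to 5000 UMIs, which left 6462 nuclei and dropped 722 shallower ones. The mean Pearson correlation of log levels was 0.121 over pairs of the 18 glycolytic genes, 0.0396 over pairs of the other 20 and 0.0541 across the 2 sets. Within group and library the values were 0.0996, 0.0390 and 0.0487. These are weak correlations of sparse counts from nuclei that share libraries, and they describe these nuclei only. The 2 sets were not matched for abundance. Glycolytic genes were seen in 2.66% (Slc16a3) to 83.2% (Aldoa) of the thinned nuclei, the others in 0.371% (Car12) to 61.4% (Bnip3l). The part of count density in the gap between the sets was not tested. In libraries A to D the glycolytic pairs had 0.0885, 0.0914, 0.151 and 0.0956 and the pairs of other genes 0.0136, 0.0105, 0.0606 and 0.0143, so library C stood above the rest for both. By group the glycolytic pairs had 0.0308 in type II-marked, 0.121 in type I-marked, 0.139 in transitional, 0.0365 in airway-marked and 0.0992 in Sox9-high nuclei. The pairs of other genes had 0.00472, 0.0429, 0.0689, 0.0383 and 0.0308 in the same order, so that in the 124 airway-marked nuclei they were level with the glycolytic pairs.

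Of 703 pairs, 183 had a correlation above 0.1 and 41 above 0.2. Aldoa with Gapdh came first at 0.427, with 0.403, 0.410, 0.457 and 0.392 in libraries A to D. Aldoa with Eno1 (0.367), Eno1 with Gapdh (0.366) and Pkm with Gapdh (0.360) followed. All 4 genes encode abundant enzymes of the pathway, for which counts are densest. Slc16a3 with Loxl2 reached 0.267, but 0.341 in library C and 0.114 to 0.130 in the others. Of all 703 pairs 4 lay below −0.1, and each joined Pfkfb4 to an abundant enzyme, the lowest being Eno1 with Pfkfb4 at −0.125 and Pkm with Pfkfb4 at −0.122. Within group and library these 4 lay between −0.0500 and −0.0402, nearer to 0.

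**Figure D3:**
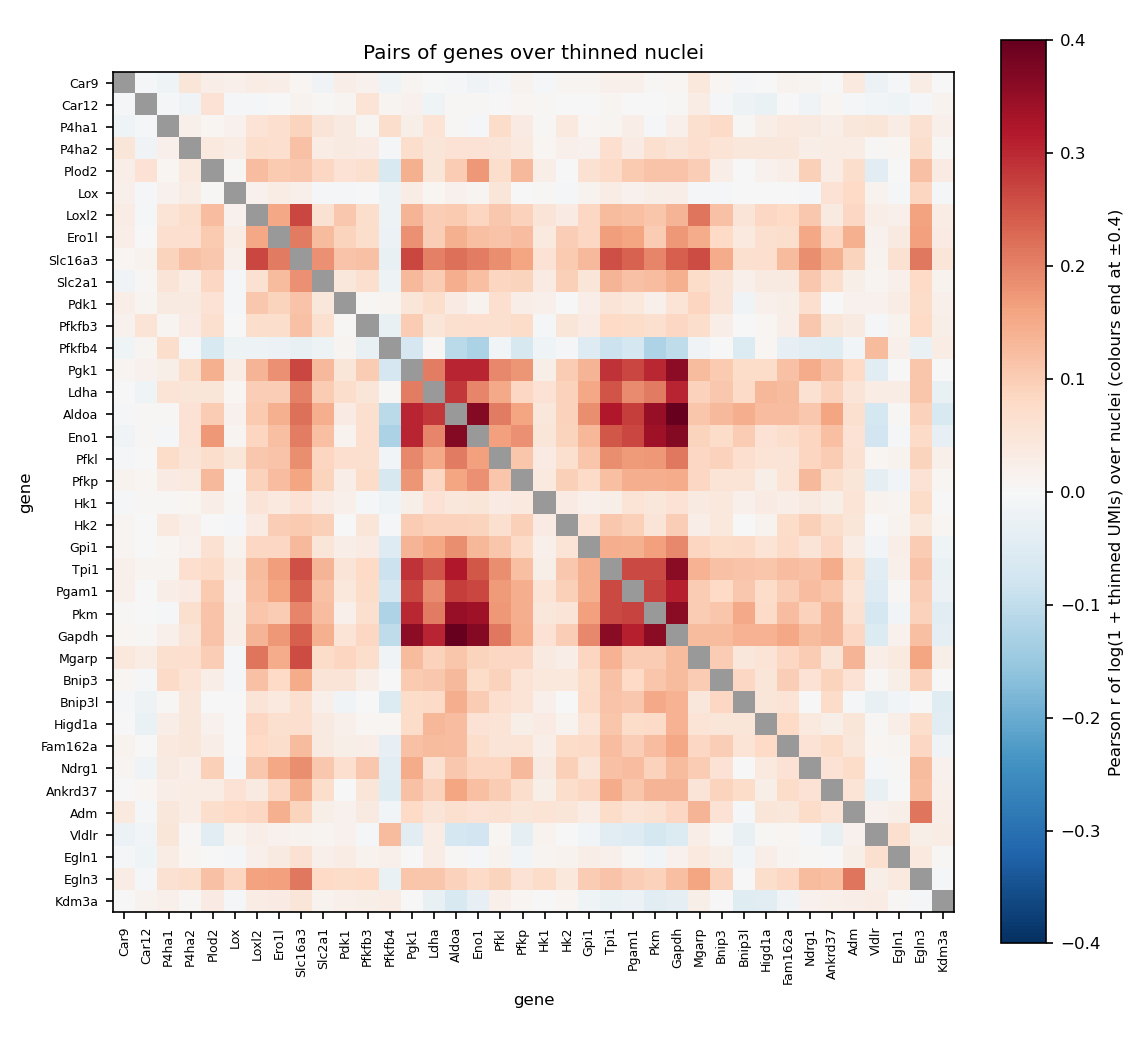
Pearson correlation of log levels over 6462 nuclei thinned to 5000 UMIs for each pair of the 38 genes (both axes, in the same order), with colours ending at ±0.4. The block of abundant glycolytic enzymes holds the highest values, up to 0.427, and the row of Pfkfb4 holds the lowest, down to −0.125.

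How closely the glycolytic genes followed the other members differed between groups of nuclei. Nuclei were binned by their thinned UMIs of the other 20 genes, and the 18 glycolytic genes were summed in each bin. The bins mostly reflect the abundant genes among the 20. Bnip3l (7131 thinned UMIs), Higd1a (4262), P4ha1 (3495), Fam162a (3000) and Kdm3a (2694) had the most, and none of them passed the 2-fold line in a group. Ankrd37 had 756, Ndrg1 494 and Egln3 74. In type II-marked nuclei the glycolytic level was flat, from 18.8 UMIs per 10000 in nuclei with 0 to 2 other UMIs to 22.0 in the 34 nuclei with 11 or more. In transitional nuclei it went from 34.4 to 35.2, 41.0, 45.4 and 52.6 over the next bins and to 96.1 in the 128 nuclei with 11 or more. In type I-marked nuclei it went from 18.6 to 28.9 in nuclei with 9 to 10, and to 77.8 in the 51 nuclei with 11 or more. In Sox9-high nuclei it was 33.8, 33.3, 32.9 and 43.2 over the bins from 0 to 2 up to 7 to 8. In airway-marked nuclei it was 26.6, 36.3 and 35.6 up to the bin of 5 to 6. Higher bins of these groups held too few nuclei. The gradient was thus clearest in transitional and type I-marked nuclei, and there it steepened in the last bin. That bin is open: it reached 17 other UMIs in type II-marked, 31 in type I-marked and 58 in transitional nuclei.

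That last bin was not even over libraries. Its glycolytic level was 37.6 in library A (36 nuclei), 57.3 in library B (21), 97.1 in library C (139) and 59.0 in library D (61), with up to 17, 17, 58 and 32 other UMIs, so that nuclei of unlike content are compared. In nuclei with 9 to 10 other UMIs the libraries lay between 34.6 and 37.6. All nuclei together had 76.5 in that bin and 68.0 without cluster 1, a cluster of 62 nuclei. Without clusters 1 and 5 the value was 50.4, still above the 22.9 of nuclei with 0 to 2 other UMIs.

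**Figure D4:**
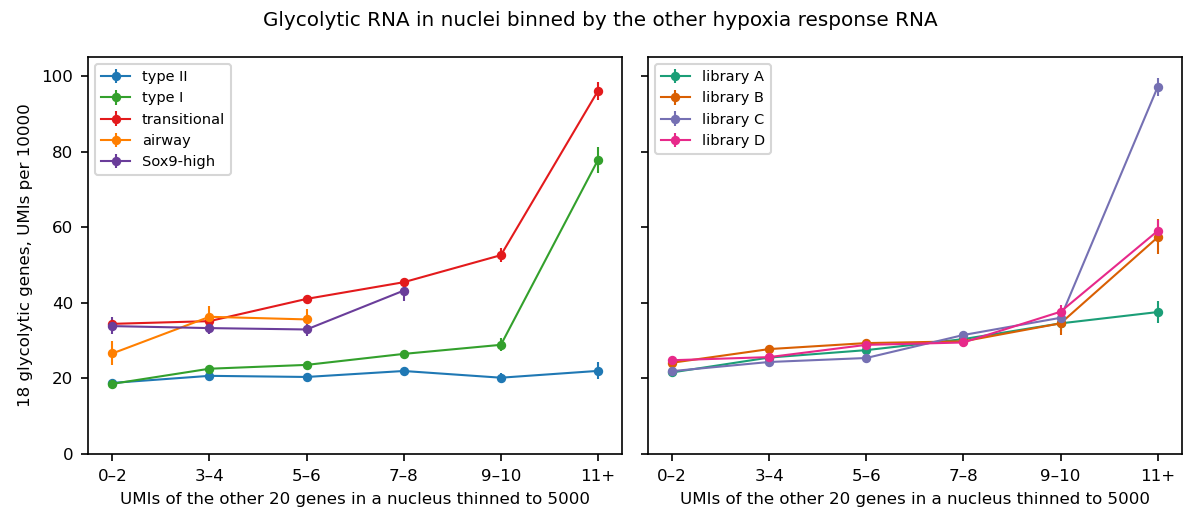
Summed level of the 18 glycolytic genes (vertical axis, UMIs per 10000, with 95% counting intervals) in nuclei binned by UMIs of the other 20 genes (horizontal axis), by marker-defined group on the left and by library on the right. Type II-marked nuclei stay between 18.8 and 22.0, while transitional nuclei go from 34.4 to 96.1, and library C reaches 97.1 in the last bin.

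Transitional nuclei with an Ndrg1 UMI carried more of most other members. Here and in the splits below other genes were not counted, so whether members differed more than genes in general was not tested. At the thinned depth 206 transitional nuclei had an Ndrg1 UMI and 1491 had none, and 29 of the 37 other genes had a ratio whose interval lay above 1. Without cluster 1 it was 28 of 37. The count differed between libraries: within A, C and D it was 4, 31 and 14 of 37, from 33, 83 and 71 nuclei with an Ndrg1 UMI, and library B had too few such nuclei. Egln3 was 12.9-fold higher, Slc16a3 4.02-fold, Pdk1 3.15-fold, Pfkfb3 2.64-fold, Ero1l 2.30-fold, Pgk1 1.87-fold and Gapdh 1.58-fold. Bnip3l was level at 0.990. Of the 16 Egln3 UMIs behind its ratio, 14 were in library C, where the ratio was 20.0, 2 in library D, with an interval of 0.632 to 716, and 0 in library A. Within libraries the size differed: the Slc16a3 ratio was 5.68 in library C and 1.90 in library D, and the Gapdh ratio was 1.1, 2.09 and 1.28 in libraries A, C and D.

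Of the type I-marked nuclei 23 had an Ndrg1 UMI, and 21 of 37 other members had an interval above 1. Of the Sox9-high nuclei 22 had one, with 1 of 37 above 1. The same split in type II-marked nuclei gave little. Of these, 40 had an Ndrg1 UMI, and 1 of 37 other members had an interval above 1. Splitting type II-marked nuclei by Pfkfb4, which 574 of them carried, gave Vldlr at 1.38 above 1 and 8 genes below 1, among them Eno1 at 0.811, Pkm at 0.833 and Gapdh at 0.904. Of the 13 enzymes 6 were among those 8 (Aldoa, Eno1, Hk2, Tpi1, Pkm and Gapdh). Vldlr is the other member that was high in type II-marked nuclei.

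A small set of nuclei held the most member RNA. Grouping nuclei by similarity on 1989 variable genes, with the 38 genes and Sox9 left out, gave 13 clusters, and cluster 1 (62 nuclei, led by Tmem213, Atp6v0a4 and Lrrc26 among others) had 114 UMIs per 10000 for the 38 genes together, beside 36.8 to 40.4 in the 4 whole libraries. In it 26 of the 38 were at least 2-fold higher than in all other nuclei, where 4.08% of all genes were, and 1 was lower (4.0%). Mgarp was at 38.1-fold from 18 UMIs, Egln3 at 12.7, Slc16a3 at 12.6, Loxl2 at 9.99, Pdk1 at 5.34, Gapdh at 4.64, Pgk1 at 3.98, Bnip3 at 3.64 and Ldha at 3.11. Pdk1, Bnip3 and Ldha, which passed the 2-fold line in none of the marker-defined groups, did so here. Pfkfb4 was the member on the low side, at 0.496.

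These nuclei came mostly from 1 library, and the rest did not share the pattern. Library C held 47 of the 62, with Gapdh at 31.1 UMIs per 10000 (29.6 to 32.7) against 5.24 in its other nuclei, Ldha at 12.4 against 3.26 and Slc16a3 at 1.09 against 0.0766. The 15 nuclei of library D had Gapdh at 6.90 against 5.65, Ldha at 3.42 against 3.38 and no Slc16a3 or Mgarp UMI, and none of the 38 genes passed the 2-fold line there without library C. The high values of cluster 1 are therefore those of 47 nuclei of library C, and a state of these nuclei cannot be told apart from something particular to that library. By markers 30 of the 62 were type I-marked and 14 transitional. Its median depth was 10386 UMIs and its mitochondrial share 7.72%, beside 6.58% in all of library C.

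Cluster 5 was larger and found in all libraries. Its 621 nuclei (119, 69, 262 and 171 in libraries A to D, 384 of them transitional) were led by Itga2, Tnfrsf23 and Hspa1a among others, and they had 62.8 UMIs per 10000 for the 38 genes. In it 15 of the 38 were at least 2-fold higher (11.3% of all genes) and 2 lower (7.38%). Adm was at 9.88-fold, Loxl2 at 8.15, Mgarp at 7.81, Slc16a3 at 6.22 and Egln3 at 4.70. Ndrg1 had 0.498, 0.698, 0.806 and 0.821 UMIs per 10000 in libraries A to D, 5.91, 11.4, 8.93 and 8.53 times the other nuclei of the same library. Gapdh was 1.48 to 2.07 times the rest within libraries. Adm, Ndrg1, Loxl2, Mgarp and Slc16a3 were thus further above the rest than the central enzymes in this cluster, while Vldlr and Pfkfb4 lay below it. Ribosomal protein RNA stood at 1016 per 10000 there, and on that scale 7 genes passed the line. The share of all genes past it on that scale is not given here.

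Accessibility differed far less than RNA. ATAC counts over each gene and 2000 bp either side were taken per 10000 counts in peaks, and the line was set at 25% higher or 20% lower, over 18356 genes with enough counts. In type II-marked nuclei 1 of the 38 was higher (5.2% of all genes) and 1 lower (7.04%). In type I-marked nuclei it was none higher (2.55%) and 4 lower (6.05%), in transitional nuclei 3 higher (6.74%) and 1 lower (5.0%), in airway-marked nuclei 8 higher (14.7%) and 2 lower (19.8%), and in Sox9-high nuclei 2 higher (8.29%) and 4 lower (9.22%). The median fold of the 38 lay between 0.925 and 1.01 in the 5 groups. Median ATAC depth per nucleus differed between libraries, at 4405, 3776, 9609 and 13991.5 counts.

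For some members RNA and accessibility differed in the same direction. Ndrg1 was 1.35-fold more accessible in transitional nuclei, with 1.36, 1.64, 1.27 and 1.37 in libraries A to D. Slc16a3 was at 1.24 there, just under the line (1.2, 1.21, 1.22 and 1.28 within libraries), and Mgarp at 1.29. Vldlr was at 1.28 in type II-marked nuclei, within libraries 1.05, 1.2, 1.27 and 1.4, and at 0.776 in transitional nuclei. In airway-marked nuclei Lox was at 3.39, Adm at 1.56 and Egln3 at 1.52 (1.35 and 1.66 in libraries C and D). Car12 was at 2.05 in Sox9-high nuclei (2.13 and 1.95 in libraries C and D). Plod2, with the larger RNA difference in those nuclei, was at 1.17 over the whole gene.

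For the enzymes the 2 readouts came apart. Of the 15 genes higher in RNA in transitional nuclei, 8 had an accessibility fold above 1 and 2 passed the line, and Gapdh was at 0.951, Pgk1 at 0.964, Tpi1 at 0.961 and Eno1 at 1.07. Pfkfb4, 4.09-fold higher in RNA in type II-marked nuclei, was at 0.999 in accessibility, with 1.03, 0.822, 1.00 and 1.03 within libraries. Loxl2 was at 1.99 in airway-marked nuclei, where 1 Loxl2 UMI was seen. Over the 38 genes the correlation between RNA and accessibility log2 folds was 0.457 in type II-marked, 0.616 in type I-marked, 0.499 in transitional, 0.737 in airway-marked and 0.521 in Sox9-high nuclei. The points share the same nuclei and are not independent.

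**Figure D5:**
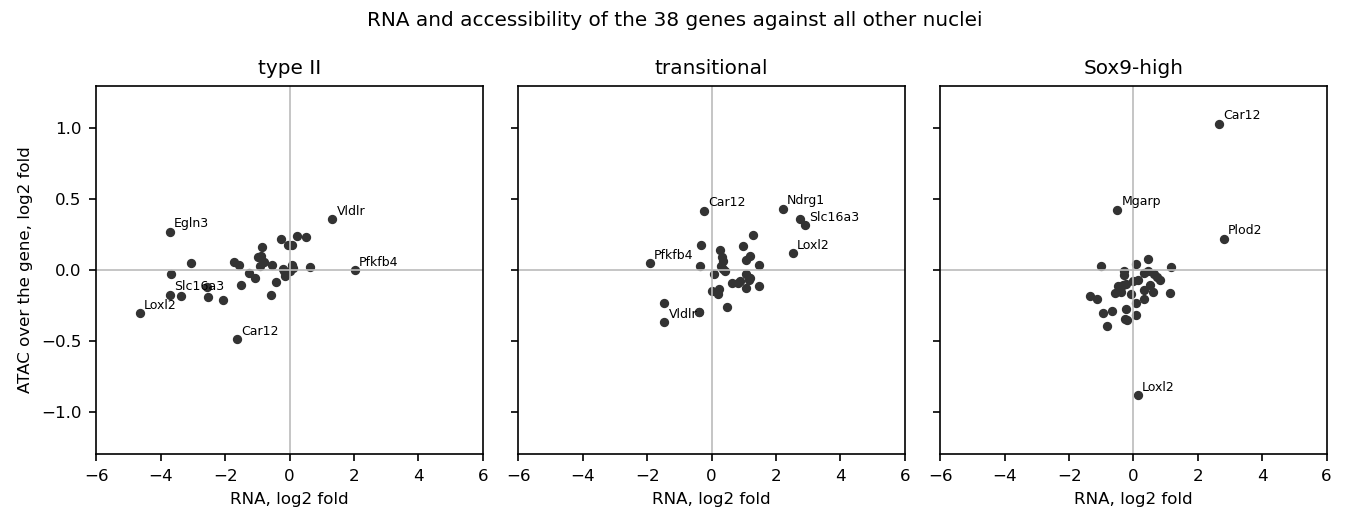
Log2 fold of RNA (horizontal axis) and of accessibility over the gene (vertical axis) for the 38 genes in type II-marked, transitional and Sox9-high nuclei against all other nuclei, with selected genes named. Accessibility stays within about ±1 while RNA spans several log2 units, and Pfkfb4 in type II-marked nuclei has high RNA with accessibility at 0.999 of the rest.

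Single peaks moved more than whole genes. The 38 genes had 154 peaks over them or within 2000 bp, and the peaks named here were picked for the size of their fold, so that they are descriptions (coordinates in mm10). In transitional nuclei a peak in Kdm3a (chr6:71590909-71591695) was 4.85-fold more accessible, with 8.57, 2.93, 6.27 and 3.21 in libraries A to D, although Kdm3a RNA was lowest there. A peak in Pfkfb3 (chr2:11529931-11530850) was at 3.27 in transitional and 0.318 in type II-marked nuclei, the directions of its RNA. A peak in Hk2 (chr6:82760587-82761523) was at 2.61 in transitional (3.32, 2.51, 2.25 and 2.77 within libraries) and 0.532 in type I-marked nuclei, also the directions of its RNA.

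Other single peaks ran against the RNA or within 1 group. The peak at the start of the annotated Pfkfb4 gene (chr9:108987496-108988492), which also lies within 2000 bp of Ucn2, was at 1.95 in transitional (2.35, 1.90, 1.68 and 2.04 within libraries) and 0.599 in type II-marked nuclei, opposite to Pfkfb4 RNA. The Pfkfb4 promoter printed above, at chr9:108991652-108991901, lies outside this peak, so these folds are not those of the printed promoter. A peak in Hk1 (chr10:62343772-62344694) was at 3.90 in type II-marked nuclei and 1 in Pdk1 (chr2:71895632-71896609) at 2.94, though their RNA folds there were 0.902 and 1.16. A Vldlr peak (chr19:27228170-27228964) was at 2.14. In Sox9-high nuclei a Car12 peak (chr9:66711986-66712780) was at 11.1 (10.2 and 10.8 in libraries C and D) and a Plod2 peak (chr9:92565773-92566686) at 6.31 from 30 counts (9.20 and 3.46), so that within Plod2 1 peak stood out over a nearly even gene. The promoter peak of Egln3 (chr12:54203370-54204182) was at 2.35 in airway-marked nuclei (2.43 and 2.31 in libraries C and D), the group in which its RNA was highest.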

How the data were processed

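RNA and chromatin accessibility were read from nuclei of tdTomato-positive cells. Both pooled matrices deposited by the authors hold raw counts, of UMIs by gene and of ATAC signal in 116068 peaks (median width 906 bp), for 7224 nuclei. Builds mm10 and GRCm38 and the tools Signac 1.10.0, Seurat 4.3.0 and Cell Ranger 6.0.1 appear in the submitters' processing notes, without their roles. Not given in the sources used here are the aligner settings, the peak caller and any filter on nuclei. Of RefSeq promoters 48.7% overlapped a deposited peak, against 6.77% after a shift of 1000000 bp, which was used to check the build. Tables of multiplexing oligos were not used here.

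Nuclei with at least 500 UMIs, 300 genes and under 20% mitochondrial UMIs were kept, which removed 25. Scrublet marked 15 (0.208%), too few for the caller to be taken as having worked. These were removed, so that doublets remain largely untreated. Per nucleus, the mean of log2(1 + UMIs per 10000) over each marker list was cut at 2.0 (type II), 1.75 (type I and transitional) and 1.5 (airway). Nuclei were assigned airway first, then Sox9-high, then the alveolar groups, with cuts set after seeing the data.

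Levels are summed UMIs per 10000, and folds set a group against all other kept nuclei, with a floor of 3 UMIs. Genes needed 30 UMIs for RNA and 300 counts for ATAC. The lines were 2-fold for RNA and 25% higher or 20% lower for ATAC. Intervals are exact at 95% and cover counting error only. Because prefixes could not be tied to samples, there is no test, mean or SD over samples. Values by library are given for members past 2-fold and the 6 with the highest level, other members by range, and each list by counts and leading genes. Promoters came from RefSeq's GRCm38.p6 table, and gene positions from RefSeq were matched for all 38 members. The members and lists were chosen with earlier results of these data known. The calculations were tested on simulated data. Python 3.11.15, scanpy 1.11.5, numpy 2.4.6, scipy 1.17.1 and pandas 2.3.3 were used. Alternatives covered filters, cuts, scales, windows, thinning and leaving out each library.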

Additional observations from a re-analysis of the deposited data

How the results depend on the processing

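Of 990 comparisons of a called member in a group with an alternative, 922 kept direction and side of the line, 67 kept direction only and 1 reversed (Slc16a3 in airway nuclei, at 1.61-fold when clusters were named from markers). Some of these agreements were fixed in advance. With no filter on low counts, a minimum of 100 UMIs or a 1.5-fold line, the 55 comparisons of each setting could not change. Those filters do not enter the call of a single gene, and a gene past 2-fold is also past 1.5-fold. Of 400 counts and medians under an alternative, 329 stayed, 69 moved and 2 reversed. Shares and medians of all genes under each alternative are not given here, so a moved count is not set against them. The ribosomal scale, the runs without clusters 1 and 5, the other cluster settings and the library omissions for clusters and correlations were chosen after seeing the data. The cause of a moved value was not tested, except that leaving out a library or a cluster removes its nuclei and a line of 1.5 lets more or fewer genes pass by construction. No paired analysis was possible because the pooled columns carry no replicate number and no result comes from a test.

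On the ribosomal scale the median log2 fold reversed in type I-marked (0.101) and airway-marked nuclei (−0.0526) and was 0.0694 in transitional and −0.0473 in Sox9-high nuclei, with 4 transitional and 7 cluster 5 genes higher. The folds of all genes in a group move by the same factor on that scale. A reversed median there is that shift, which the median of all genes shares, so the gap between members and all genes is unchanged. Without clusters 1 and 5, 9 genes were higher in transitional nuclei (Mgarp, also past the line, was left with 29 UMIs and not tested) and 2 lower in airway-marked nuclei, the medians were 0.373, 0.325 and 0.103 in transitional, airway-marked and Sox9-high nuclei, and the mean correlations were 0.0865 (glycolytic pairs) and 0.0139 (other pairs). With clusters named from markers, 1 gene was higher in type I-marked and 8 in transitional nuclei, and 2 were lower in airway-marked nuclei with a median of 0.219. A stricter cut and the per-nucleus mean each gave 1 higher in type I-marked nuclei, and the geometric mean over libraries gave 3 lower there. A 1.5-fold RNA line gave 10 lower in type I-marked, 9 higher and 7 lower in airway-marked, and 8 higher and 6 lower in Sox9-high nuclei. Totals without markers gave 2 lower and a median of 0.273 in airway-marked nuclei, a minimum of 100 UMIs gave 0.0884 there, and at least 10 Sox9 UMIs gave 0.0976 in Sox9-high nuclei. The second thinning depth and unthinned levels gave glycolytic correlations of 0.0843 and 0.173. Resolution 0.5 gave 0 higher genes in the best matches of clusters 1 and 5, and resolution 1.2 gave 9 for cluster 5.

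Leaving out 1 library gave 0 to 1 higher and 4 to 8 lower in type I-marked nuclei, 2 to 4 lower and medians of 0.0958 to 0.219 in airway-marked nuclei, 1 to 4 lower and medians of −0.0430 to 0.169 in Sox9-high nuclei, correlations of 0.0141 to 0.0477 for the other pairs, and 0 to 29 higher in cluster 1, with 0 without library C.

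For accessibility, the 10000 bp window gave 0 lower in type II-marked, 1 higher and 2 lower in transitional and 4 higher in airway-marked nuclei. The promoter alone gave 2 higher and 0 lower in type II-marked, 0 lower in transitional, 3 higher in airway-marked and 0 higher in Sox9-high nuclei. Peaks counted as 0 or 1 gave 0 higher in type II-marked and 2 lower in type I-marked nuclei, and nuclei with at least 1000 counts gave 1 higher in type I-marked nuclei. A 1.5-fold line gave 0 in either direction in type II-marked and transitional nuclei, 0 lower in type I-marked, 4 higher in airway-marked, and 1 higher and 1 lower in Sox9-high nuclei. Leaving out 1 library gave 0 to 1 higher and 1 to 2 lower in type II-marked, 0 to 1 higher in type I-marked, 1 to 3 lower in transitional and 2 to 7 lower in airway-marked nuclei.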
